A study of Mus musculus with 12 samples.

Results

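The mRNA of 10 cytokine receptor chains was examined in cytotoxic T lymphocytes (CTL), the effector form of CD8 T cells. The chains were the IL-7 receptor α chain (Il7r), the α, β and common γ chains of the IL-2 receptor (Il2ra, Il2rb, Il2rg), the IL-4 and IL-21 receptor chains (Il4ra, Il21r), both IL-12 receptor chains (Il12rb1, Il12rb2) and both IL-18 receptor chains (Il18r1, Il18rap). They were taken by gene symbol from the deposited table of FPKM (fragments per kilobase of exon, scaled to sequencing depth), and all 10 were present among its 13283 genes.

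RNA sequencing covered 12 libraries, 3 biological replicates in each of 4 groups. WT CTL came from female mice aged 11 to 27 weeks that carried Cre recombinase under the granzyme B promoter (GzmB cre+), and FOXO1-GFP KO CTL came from FOXO1-GFPfl/fl GzmB cre+ females of the same age range, in which Cre removes the floxed Foxo1 exon together with its GFP tag. Both were activated for 48 h with antibodies to CD3 and CD28 and then kept in IL-12 at 2 ng/mL together with IL-2 at 20 ng/mL, and each was given either the vehicle DMSO (the WT and FOXO1-GFP KO groups) or 10 µM IC87114 for 24 h (the WT+PI3Kdi and FOXO1-GFP KO+PI3Kdi groups). IC87114 inhibits p110δ, the catalytic PI3K subunit of leukocytes, and is written PI3Kdi. Cre under the granzyme B promoter acts once T cells have been activated, so the cells were not FOXO1 null before that. The genotypes were not sorted by the same gate, since FOXO1-GFP KO CTL were DAPI- CD8+ GFP- and WT CTL were DAPI- CD8+.

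The depth of the libraries, as estimated from the steps between low FPKM, was 12.9 to 48.0 M reads. It includes the normalisation factors of the study and is not a plain count of reads. Foxo1 fell from 7.18 ± 2.43 FPKM (SD, n = 3) in WT to 1.03 ± 0.432 FPKM in FOXO1-GFP KO CTL (log2 fold change -2.71, adjusted p = 0.0148), and the genotypes also differed with PI3Kdi (-2.76, adjusted p = 0.00478). All 9 CTL markers were present, with a summed level of 8597 to 12526 FPKM in every library. Most of this sum was Gzmb, at 7317 to 10955 FPKM, so it says little about the other markers. Of 12 B cell markers the table held 3, with sums of 11.4 to 19.5 FPKM in the WT and WT+PI3Kdi libraries and 4.31 to 6.88 FPKM in the FOXO1-GFP KO and FOXO1-GFP KO+PI3Kdi libraries; the markers Ms4a1 and Pax5 were not in the table. For myeloid cells 7 of 12 markers were present (47.9 to 85.3 FPKM in sum, higher in FOXO1-GFP KO+PI3Kdi than in FOXO1-GFP KO without overlap). Cst3 and Cd68 made up most of that sum. Their means were 40.5 and 18.5 FPKM in FOXO1-GFP KO and 50.6 and 23.5 FPKM in FOXO1-GFP KO+PI3Kdi. The means of Itgam, Cd14, Fcgr3, Itgax and Mpeg1 were lower in FOXO1-GFP KO+PI3Kdi than in FOXO1-GFP KO. CD4 T cells had 3 of 4 markers present (4.96 to 8.24 FPKM). NK cells had 1 of 5 (1.94 to 2.67 FPKM in the WT groups and 2.47 to 4.81 FPKM in the FOXO1-GFP KO groups). The replicates were labelled as biological, but whether a vehicle and a PI3Kdi library with the same number came from one mouse was not stated, so p measures the spread between these samples.

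Class I cytokine receptors signal through JAK kinases and STAT transcription factors once a cytokine joins their chains. The common γ chain is shared by the receptors for IL-2, IL-4, IL-7, IL-9, IL-15 and IL-21, so the private chains determine which of these cytokines a T cell can sense. The IL-12 receptor is a class I receptor that signals through STAT4, whereas the IL-18 receptor belongs to the IL-1 receptor family and signals through MyD88. Naïve and memory CD8 T cells depend on IL-7 and express Il7r, effector CD8 T cells reduce it, and FOXO1 is a known activator of Il7r that AKT keeps out of the nucleus when PI3K is active.

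The 10 mRNA covered a wide range of levels, and Il7r was the lowest of them. Averaged over the 12 libraries, Il2rb stood highest with 399.8 FPKM, followed by Il2ra with 165 FPKM, while Il7r had 9.16 FPKM. FPKM are values per length of exon, so levels can be compared between genes. Il2rb was above Il2ra in every group without overlap of their libraries, and Il2ra was likewise above the next chain in rank. Il12rb1, Il2rg, Il12rb2 and Il21r lay between 56.5 and 123 FPKM and mostly overlapped their neighbours in rank. Il4ra (43.1 to 66.4 FPKM) and Il18r1 (27.5 to 60.1 FPKM) followed, overlapping each other in WT and WT+PI3Kdi but not in the FOXO1-GFP KO groups. Il18rap (18.3 to 30.4 FPKM) lay below Il18r1 and above Il7r in all 4 groups without overlap. Among all genes of the table Il7r was at the 63.8th percentile of mean FPKM and the other 9 chains between the 82.9th and 99.1st. The reads behind a value, estimated from FPKM, depth and exon length, were 208 to 1706 per library for Il7r and 2088 or more for each of the others.

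**Figure D1:**
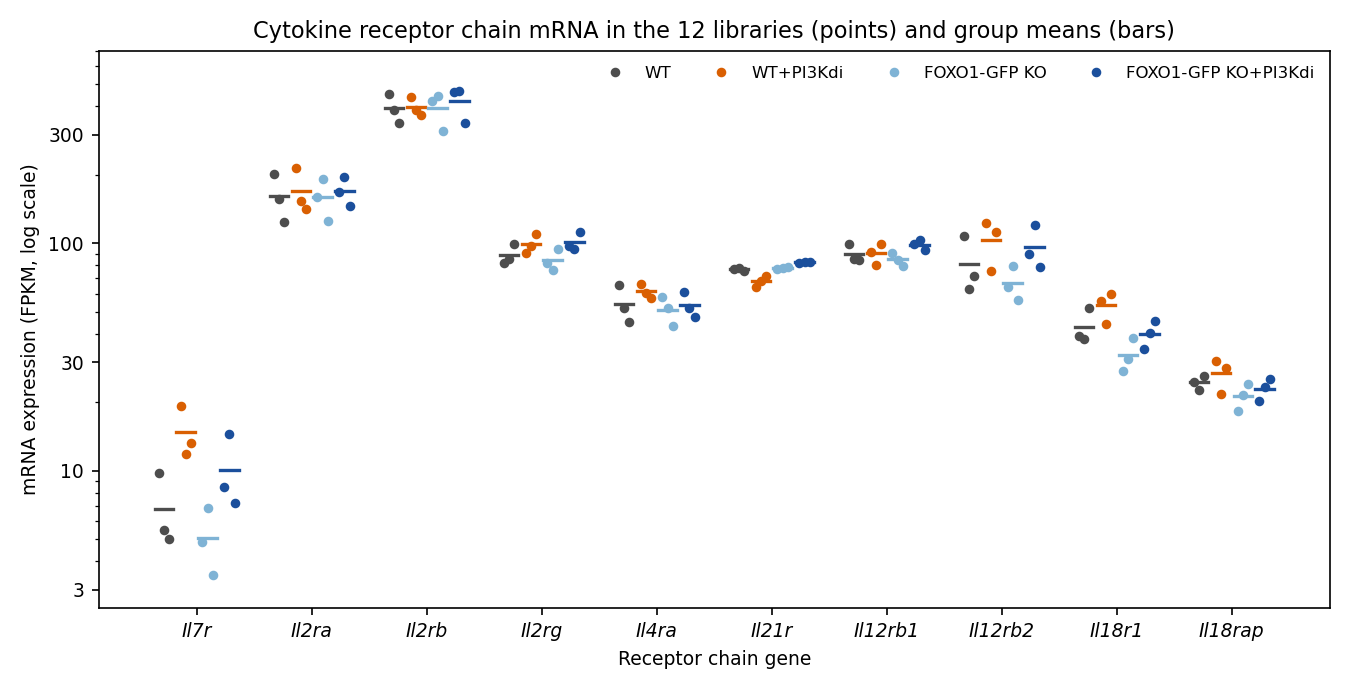
mRNA expression in FPKM on a log axis for the 10 receptor chains, with one point per library (3 per group) and a bar at each group mean. Il7r lies lowest, between 3.47 and 19.2 FPKM, and its PI3Kdi libraries lie above the vehicle libraries of the same genotype, while the points of most other chains overlap between groups.

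Il7r was higher in every PI3Kdi library than in the vehicle libraries of its genotype, by 2.22 times for WT and 1.95 times for FOXO1-GFP KO CTL in the fit, and was the single chain of the 10 called with PI3Kdi once replicate pairs were modelled. The gene (ENSMUSG00000003882, chromosome 15, 9505788 to 9530176, GRCm38, minus strand) encodes the α chain that makes the IL-7 receptor with the common γ chain and the TSLP receptor with Crlf2. In WT CTL its expression was 9.80, 5.49 and 5.0 FPKM in replicates 1 to 3, and in WT+PI3Kdi it was 19.2, 11.9 and 13.2 FPKM. Il7r in FOXO1-GFP KO CTL was 4.85, 6.85 and 3.47 FPKM with vehicle and 8.48, 14.5 and 7.23 FPKM with PI3Kdi. The libraries did not overlap within either genotype, and each replicate number had more Il7r with PI3Kdi than with vehicle, 1.96 to 2.64 times in WT and 1.75 to 2.11 times in FOXO1-GFP KO CTL. The group means were 6.76 ± 2.64 FPKM in WT against 14.8 ± 3.91 FPKM in WT+PI3Kdi (SD, n = 3), and 5.06 ± 1.70 FPKM in FOXO1-GFP KO against 10.1 ± 3.87 FPKM in FOXO1-GFP KO+PI3Kdi.

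Whether this difference passed the threshold depended on how the replicates were treated. An mRNA was called when its fold change was over 1.5 and its p, adjusted over all genes, under 0.05, on the scale of log2(FPKM + 0.1). In the fit of group means, the log2 fold change of Il7r with PI3Kdi was 1.15 ± 0.34 (SE) for WT (adjusted p = 0.405), 0.97 ± 0.34 for FOXO1-GFP KO CTL (adjusted p = 0.732) and 1.06 ± 0.24 as the mean of the genotypes (adjusted p = 0.0831), so Il7r was not called. Within a genotype, libraries that shared a replicate number departed from their group means in the same way, and with the replicate number as a block the same changes had an SE of 0.14, 0.14 and 0.10 and adjusted p = 0.00045, 0.00185 and 3.69e-05, so that Il7r was called in all 3 comparisons, in which 2.57%, 2.79% and 2.12% of all genes were called. It stayed called in these 3 comparisons in each of 12 blocked fits that left out 1 library, where its log2 fold change was 1.02 to 1.29 in WT and 0.86 to 1.05 in FOXO1-GFP KO CTL. Some markers of other cells were also higher with PI3Kdi in the WT groups. Among the B cell markers Cd79b was nearly level (3.00, 3.54 and 4.29 FPKM with vehicle, 2.86, 3.67 and 4.49 FPKM with PI3Kdi). Ighm was higher (8.06, 10.33 and 7.61 FPKM, then 11.05, 12.98 and 12.77 FPKM). In the blocked fit Igkc was called (0.30, 1.68 and 0.74 FPKM with vehicle, 1.38, 2.84 and 2.20 FPKM with PI3Kdi). Cd4 was called as well (0.55, 0.57 and 0.44 FPKM, then 0.95, 0.83 and 0.90 FPKM). The other CD4 T cell markers present, Cd40lg and Zbtb7b, had lower means with PI3Kdi (0.613 against 0.643 FPKM and 6.02 against 6.43 FPKM). In FOXO1-GFP KO CTL the means of Ighm were 2.83 FPKM with vehicle and 2.35 FPKM with PI3Kdi, and those of Igkc 0.153 and 0 FPKM. Cd79b and Cd4 had higher means with PI3Kdi there (2.96 against 2.51 FPKM and 0.35 against 0.247 FPKM). Cd40lg and Zbtb7b had lower ones. The part of these markers in the Il7r difference was not tested. The study itself named Il7r among the mRNA that rose with this inhibitor, so its choice was not independent of these samples. With PI3Kdi in WT, 13 of 13283 genes were called without the block and 342 with it. The count that the study reported for WT at the same thresholds lay nearer to the blocked one.

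The response of Il7r to PI3Kdi was not shown to differ between genotypes. The response in FOXO1-GFP KO minus that in WT was -0.18 on the log2 scale (95% interval -1.22 to 0.86, adjusted p = 1 without the block; -0.61 to 0.24, adjusted p = 0.757 with it). Il7r itself was 0.76 times the WT level in FOXO1-GFP KO CTL without PI3Kdi (log2 fold change -0.40, 95% interval -1.14 to 0.34) and 0.67 times with PI3Kdi (-0.58, 95% interval -1.32 to 0.15). Libraries of the genotypes overlapped in both comparisons and neither was called (adjusted p = 1 and 0.643). These intervals hold both an equal level and a level below 0.5 times that of WT. In bulk RNA, a smaller number of cells with the mRNA and less mRNA per cell cannot be told apart.

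The RefSeq promoter table (GRCm38.p6) held windows for 8 of the 10 chains. Il2rb and Il12rb1 were without an entry. The 250 bases before each start were searched on both strands for the FOXO motif GTAAACA and for the STAT motif TTCNNNGAA; no window of a chain held both. Among all 32851 windows of the table, 3.17% held the FOXO motif and 7.02% the STAT motif. Among the 12228 windows of genes with deposited FPKM, the shares were 2.14% and 5.87%. Below are the upstream bases of Il7r, which was called with PI3Kdi in the blocked fit, of Il12rb2, which of the other chains varied most like Il7r (Pearson's r = 0.91 over the 12 libraries, as a description), and of Il21r, whose response differed in sign between the genotypes. Matches are in capitals, and the last base lies next to the start. The Il7r stretch is chr15:9529877-9530040 (minus strand), which precedes the RefSeq start but lies within the gene as GENCODE annotates it, in an intron of a longer Il7r transcript whose first exon holds the 86 bases further upstream that are left out, that of Il12rb2 is chr6:67376189-67376438 (minus strand) and that of Il21r is chr7:125603179-125603428 (plus strand).
Il7r: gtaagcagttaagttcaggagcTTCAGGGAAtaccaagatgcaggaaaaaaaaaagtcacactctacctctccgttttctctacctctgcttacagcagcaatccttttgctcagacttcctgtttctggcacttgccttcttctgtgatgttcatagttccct
Il12rb2: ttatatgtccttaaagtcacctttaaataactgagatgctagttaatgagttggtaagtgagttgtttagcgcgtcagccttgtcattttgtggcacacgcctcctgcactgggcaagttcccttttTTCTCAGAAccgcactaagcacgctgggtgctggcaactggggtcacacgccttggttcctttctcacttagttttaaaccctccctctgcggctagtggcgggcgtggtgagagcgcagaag
Il21r: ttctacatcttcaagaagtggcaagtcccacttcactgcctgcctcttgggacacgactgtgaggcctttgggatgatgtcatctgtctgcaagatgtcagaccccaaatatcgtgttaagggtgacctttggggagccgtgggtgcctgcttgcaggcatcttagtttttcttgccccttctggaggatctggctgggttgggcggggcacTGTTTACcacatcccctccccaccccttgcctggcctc

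The STAT motif stood in the Il7r window, beginning 142 bases before the start, in that of Il12rb2, beginning 123 bases before it, and in 1 of the 3 windows of Il18r1. The FOXO motif stood only in the window of Il21r among the 8 chains, as its reverse complement TGTTTAC, beginning 38 bases before the start. The windows of Il2ra, Il2rg, Il4ra and Il18rap held neither motif. These are matches of letters in short windows, and other parts of the genes were not searched.

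**Figure D2:**
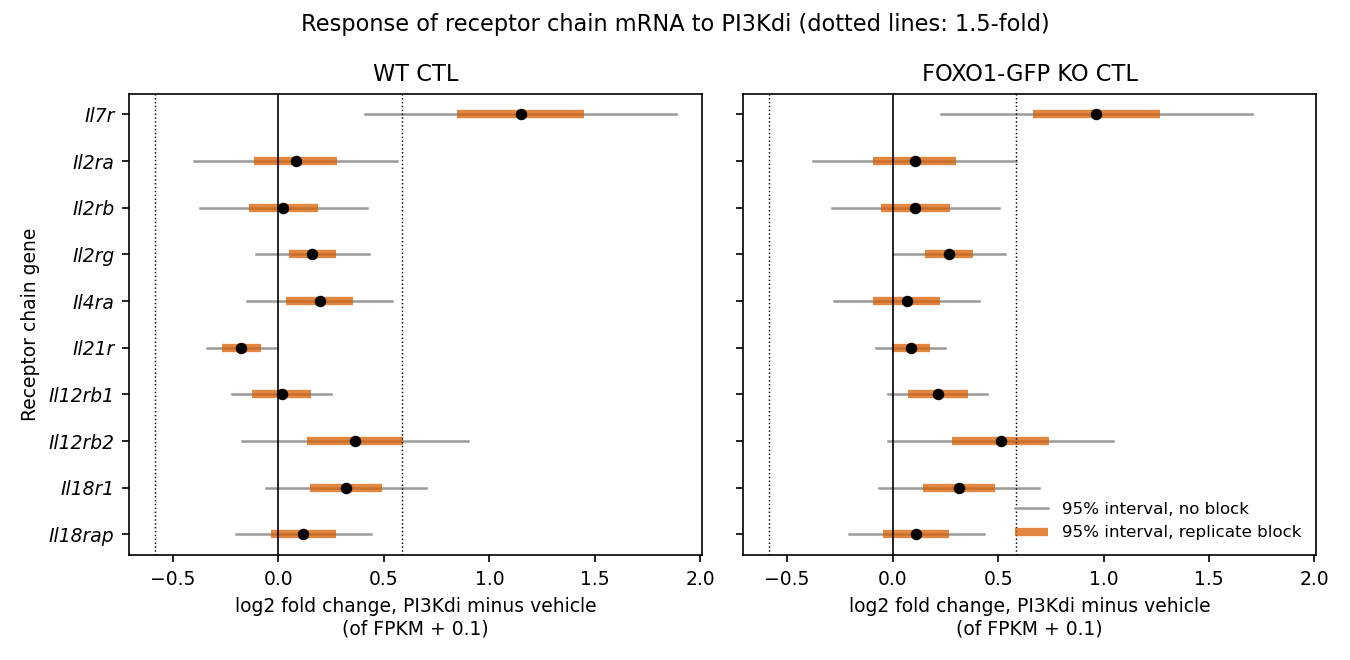
log2 fold change of FPKM + 0.1 with PI3Kdi against vehicle in WT CTL (left) and FOXO1-GFP KO CTL (right) for the 10 receptor chains. Points are estimates, thin lines 95% intervals without and thick bars 95% intervals with the replicate block, and dotted lines mark a fold change of 1.5. Il7r is the only point beyond the dotted line in either panel.

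None of the IL-2 receptor chains was called in any comparison. Il2ra, the α chain that gives the receptor its high affinity, was 202, 157 and 124 FPKM in WT CTL with vehicle and 213, 153 and 142 FPKM with PI3Kdi. Il2ra in FOXO1-GFP KO CTL was 159, 192 and 126 FPKM with vehicle and 168, 195 and 145 FPKM with PI3Kdi. All 4 groups overlapped, and the libraries of one replicate number lay close to each other (0.978 to 1.16 times with PI3Kdi). The log2 fold change with PI3Kdi was 0.08 (95% interval -0.40 to 0.56) for WT and 0.10 (-0.38 to 0.59) for FOXO1-GFP KO CTL, with adjusted p = 1 and 0.939.

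Il2rb, the signalling β chain that IL-2 and IL-15 receptors share, was 453, 383 and 337 FPKM in WT CTL with vehicle and 437, 384 and 366 FPKM with PI3Kdi. Il2rb in FOXO1-GFP KO CTL was 422, 441 and 311 FPKM with vehicle and 463, 465 and 337 FPKM with PI3Kdi. Again the groups overlapped, with log2 fold changes of 0.02 (95% interval -0.37 to 0.42) for WT and 0.11 (-0.29 to 0.50) for FOXO1-GFP KO CTL. The ratio of Il2rb to Il2ra was 2.47 ± 0.246 for WT, 2.38 ± 0.289 for WT+PI3Kdi, 2.48 ± 0.180 for FOXO1-GFP KO and 2.48 ± 0.237 for FOXO1-GFP KO+PI3Kdi (SD, n = 3). The ratio thus differed between groups by less than between replicates.

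Il2rg, the common γ chain, was 81.5, 85.1 and 99.5 FPKM in WT CTL with vehicle and 90.8, 97.1 and 109 FPKM with PI3Kdi. Il2rg in FOXO1-GFP KO CTL was 82.2, 76.3 and 93.9 FPKM with vehicle and 96.8, 94.5 and 112 FPKM with PI3Kdi. All 6 pairs were higher with PI3Kdi, by 1.1 to 1.24 times, and in FOXO1-GFP KO CTL the vehicle and PI3Kdi libraries did not overlap. The log2 fold change was 0.16 for WT and 0.27 for FOXO1-GFP KO CTL (adjusted p = 1 and 0.933; 0.08 and 0.00956 with the block). Il2rg therefore passed the adjusted p with the block in FOXO1-GFP KO CTL and as the mean of the genotypes (0.21, adjusted p = 0.00204), but stayed under the fold change of 1.5. In FOXO1-GFP KO CTL the blocked adjusted p reached 0.0715 when FOXO1-GFP KO replicate 2 or FOXO1-GFP KO+PI3Kdi replicate 3 was left out in turn.

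Il7r took a small share of the mRNA of the chains that pair with Il2rg. Of the summed FPKM of Il2ra, Il2rb, Il7r, Il4ra and Il21r, Il7r made up 0.960% ± 0.221 for WT, 2.06% ± 0.326 for WT+PI3Kdi, 0.727% ± 0.143 for FOXO1-GFP KO and 1.35% ± 0.384 for FOXO1-GFP KO+PI3Kdi (SD, n = 3). The share was higher with PI3Kdi, without overlap of the libraries within a genotype.

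Il4ra and Il21r lie next to each other on chromosome 7, 24.0 kb apart. Il4ra, the α chain for IL-4 and IL-13, was 65.7, 52.0 and 44.9 FPKM in WT CTL with vehicle and 66.4, 60.3 and 57.3 FPKM with PI3Kdi. Il4ra in FOXO1-GFP KO CTL was 58.1, 51.9 and 43.1 FPKM with vehicle and 60.7, 52.0 and 47.2 FPKM with PI3Kdi. The groups overlapped, and although all 6 pairs were higher with PI3Kdi (1.0 to 1.28 times), the log2 fold change of 0.19 for WT and 0.07 for FOXO1-GFP KO CTL did not pass the test with or without the block (adjusted p = 0.13 and 0.559 with it).

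Il21r, which makes the IL-21 receptor with Il2rg, was the chain with the smallest spread between replicates. Its level was 76.7, 77.6 and 75.6 FPKM in WT CTL with vehicle and 63.9, 68.4 and 71.4 FPKM with PI3Kdi. Il21r in FOXO1-GFP KO CTL was 76.7, 77.8 and 78.4 FPKM with vehicle and 82.0, 82.9 and 82.4 FPKM with PI3Kdi. With PI3Kdi the 3 WT pairs were lower (0.833 to 0.945 times) and the 3 FOXO1-GFP KO pairs higher (1.05 to 1.07 times), without overlap in either genotype. This pattern was shown by 208 of the 10373 genes averaging 1 FPKM or more (2.01%). The log2 fold change was -0.18 for WT (adjusted p = 0.909; 0.0262 with the block) and 0.09 for FOXO1-GFP KO CTL (adjusted p = 0.933; 0.19 with the block). The difference of the responses, 0.26 (95% interval 0.03 to 0.49), had an unadjusted p of 0.031 and an adjusted p of 1 without the block, and an adjusted p of 0.111 with it. For WT the blocked adjusted p rose above 0.05, up to 0.151, without replicate 1 or 2 of either WT group, and Il21r was not called in any comparison.

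Between genotypes, Il21r with PI3Kdi was the only chain without overlap, where 14.8% of all genes were without overlap. All 3 FOXO1-GFP KO+PI3Kdi libraries lay above all 3 WT+PI3Kdi libraries, a log2 fold change of 0.28 (95% interval 0.12 to 0.44, adjusted p = 0.122). Without PI3Kdi the genotypes overlapped, with a log2 fold change of 0.02 (adjusted p = 1).

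**Figure D3:**
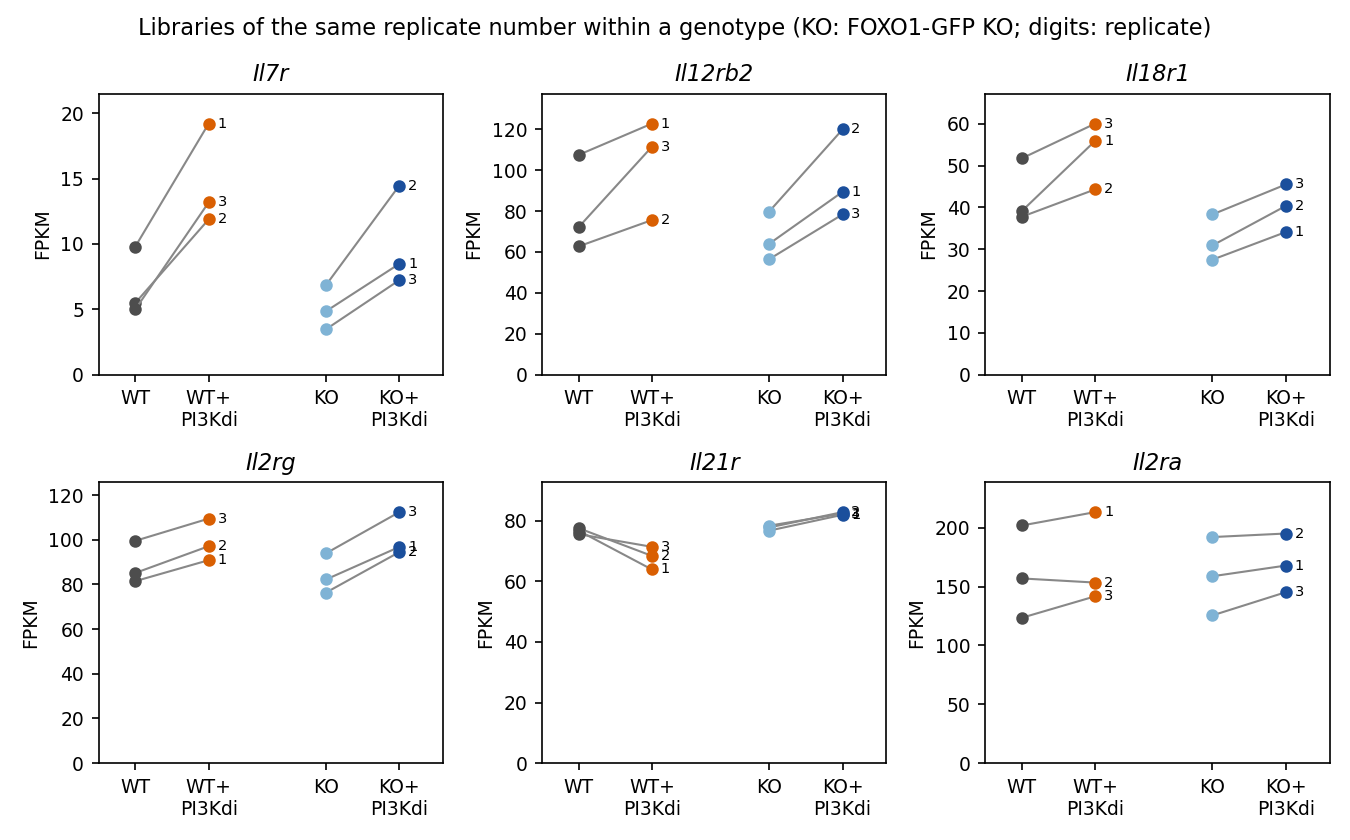
FPKM of 6 receptor chains in vehicle and PI3Kdi libraries, with lines joining libraries that share a replicate number within a genotype (KO, FOXO1-GFP KO; axes start at 0). Every line rises for Il7r, Il12rb2, Il18r1 and Il2rg, the Il21r lines fall in WT and rise slightly in FOXO1-GFP KO, and the Il2ra lines are nearly level.

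IL-12 was present in the culture medium throughout, and neither of its receptor chains was called. Il12rb1, the chain that IL-12 and IL-23 receptors share, was 98.7, 84.9 and 84.4 FPKM in WT CTL with vehicle and 91.5, 80.2 and 99.3 FPKM with PI3Kdi. Il12rb1 in FOXO1-GFP KO CTL was 90.9, 84.4 and 79.4 FPKM with vehicle and 99.4, 103 and 92.9 FPKM with PI3Kdi. The WT groups overlapped (log2 fold change 0.01), whereas in FOXO1-GFP KO CTL all PI3Kdi libraries lay above the vehicle libraries (log2 fold change 0.21, adjusted p = 0.933; 0.055 with the block).

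Il12rb2, the signalling chain specific for IL-12, was 107, 62.7 and 72.1 FPKM in WT CTL with vehicle and 123, 75.6 and 111 FPKM with PI3Kdi. Il12rb2 in FOXO1-GFP KO CTL was 64.0, 79.8 and 56.5 FPKM with vehicle and 89.4, 119.9 and 78.3 FPKM with PI3Kdi. The groups overlapped, but every pair was higher with PI3Kdi, by 1.14 to 1.55 times. The log2 fold change was 0.36 ± 0.24 (SE) in WT, 0.51 ± 0.24 in FOXO1-GFP KO CTL and 0.44 ± 0.17 as the mean of the genotypes (adjusted p = 1, 0.933 and 0.433). With the block the adjusted p was 0.0589, 0.0129 and 0.00208, and the changes stayed under the fold change of 1.5. Leaving out replicate 2 of FOXO1-GFP KO or of FOXO1-GFP KO+PI3Kdi took the blocked adjusted p for FOXO1-GFP KO CTL above 0.05, up to 0.0785. After Il7r, Il12rb2 had the largest log2 fold change with PI3Kdi of the 10 chains in both genotypes.

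Both IL-18 receptor chains lie on chromosome 1 in the same direction, 14.5 kb apart, and both had lower means in FOXO1-GFP KO CTL, differences that did not pass the test. Il18r1, the chain that binds IL-18, was 39.1, 37.8 and 51.8 FPKM in WT CTL with vehicle and 55.9, 44.3 and 60.1 FPKM with PI3Kdi. Il18r1 in FOXO1-GFP KO CTL was 27.5, 30.9 and 38.3 FPKM with vehicle and 34.1, 40.4 and 45.5 FPKM with PI3Kdi. Libraries of the genotypes overlapped by a single library at each end, and the log2 fold change between genotypes was -0.41 (95% interval -0.79 to -0.03, adjusted p = 0.68) without PI3Kdi and -0.42 (-0.80 to -0.04, adjusted p = 0.426) with it.

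With PI3Kdi every Il18r1 pair was higher, by 1.16 to 1.43 times. The log2 fold change was 0.32 for WT and 0.31 for FOXO1-GFP KO CTL, and 0.32 as the mean of the genotypes (adjusted p = 0.422). The block gave adjusted p = 0.029, 0.0288 and 0.00248, again under the fold change of 1.5. The adjusted p of both single genotypes rose above 0.05 in 4 of 12 blocked fits that left out 1 library, up to 0.171 for WT (without WT replicate 1 or 2 or WT+PI3Kdi replicate 1 or 3) and 0.145 for FOXO1-GFP KO CTL (without FOXO1-GFP KO replicate 1 or 2 or FOXO1-GFP KO+PI3Kdi replicate 2 or 3).

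Il18rap, the accessory chain that completes the IL-18 receptor, was 24.5, 22.6 and 26.2 FPKM in WT CTL with vehicle and 30.4, 21.7 and 28.2 FPKM with PI3Kdi. Il18rap in FOXO1-GFP KO CTL was 18.3, 21.4 and 24.1 FPKM with vehicle and 20.2, 23.4 and 25.2 FPKM with PI3Kdi. The groups overlapped, and no comparison passed the test (log2 fold change between genotypes -0.20 without and -0.21 with PI3Kdi). The ratio of Il18r1 to Il18rap was 1.75 ± 0.203 for WT, 2.00 ± 0.147 for WT+PI3Kdi, 1.51 ± 0.0765 for FOXO1-GFP KO and 1.74 ± 0.0588 for FOXO1-GFP KO+PI3Kdi (SD, n = 3).

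Both upstream neighbours of Il18r1 were called lower in FOXO1-GFP KO CTL with PI3Kdi. Il1rl1, the IL-33 receptor, ends 0.136 kb before Il18r1 starts on the same strand, and Il1rl2, an IL-36 receptor chain, lies 62.0 kb further upstream. Il1rl1 was 5.57, 2.98 and 3.92 FPKM in WT+PI3Kdi and 1.90, 1.95 and 1.75 FPKM in FOXO1-GFP KO+PI3Kdi, without overlap, and was called lower (log2 fold change -1.07, adjusted p = 0.0474). Il1rl2 was 0.67, 0.64 and 0.55 FPKM against 0.19, 0.28 and 0.16 FPKM in the same groups and was called lower as well (-1.23, adjusted p = 0.0355; 0.0542 with the block). A pseudocount of 1 FPKM ended both calls, with log2 fold changes of -0.82 for Il1rl1 and -0.42 for Il1rl2. The Il1rl1 call was also lost with a minimum mean of 1 FPKM, and that of Il1rl2 with voom and the block. Among all genes, 1.45% were called between the genotypes with PI3Kdi. The Il1rl1 call was lost in 9 of 12 fits that left out 1 library (adjusted p 0.0314 to 0.166 over the 12), namely each fit without a FOXO1-GFP KO or FOXO1-GFP KO+PI3Kdi library and those without WT replicate 3 or WT+PI3Kdi replicate 1 or 3. The Il1rl2 call was lost in 7 of 12 (0.0247 to 0.146), namely without WT replicate 2, any WT+PI3Kdi library, FOXO1-GFP KO replicate 1 or FOXO1-GFP KO+PI3Kdi replicate 1 or 3. B cell markers were also lower and the NK marker higher in the FOXO1-GFP KO groups by the sums given above. Their part in the genotype differences was not tested. The part of the myeloid markers Cst3 and Cd68 in the FOXO1-GFP KO response to PI3Kdi was not tested either.

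**Figure D4:**
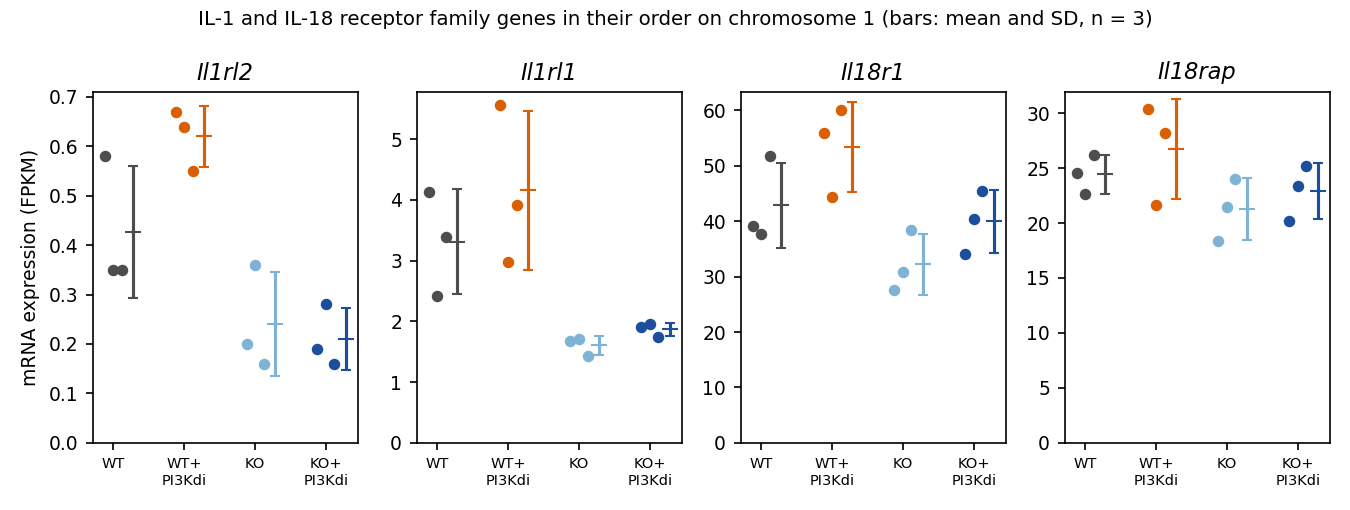
FPKM of Il1rl2, Il1rl1, Il18r1 and Il18rap, which follow each other in this order on chromosome 1, in WT, WT+PI3Kdi, FOXO1-GFP KO (KO) and FOXO1-GFP KO+PI3Kdi (KO+PI3Kdi). Points are libraries and bars the mean and SD (n = 3, axes start at 0); for Il1rl1 the FOXO1-GFP KO libraries lie at 1.43 to 1.71 FPKM against 2.41 to 4.13 FPKM in WT.

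Counted over the 10 chains, 0 were called in any of the comparisons without the block. Among all genes the calls without the block were 0.0979% with PI3Kdi in WT, 0.0452% in FOXO1-GFP KO CTL, 0.467% for the mean of the genotypes, 0.331% and 1.45% between genotypes without and with PI3Kdi, and 0% for the difference of the responses. At an unadjusted p under 0.05, the chains numbered 2 in WT (Il7r and Il21r, where 5.14% of all genes reached it), 2 for FOXO1-GFP KO CTL (Il7r and Il2rg, 5.17%), 4 for the mean of the genotypes (9.47%), 1 and 2 between genotypes without and with PI3Kdi (6.51% and 10.2%), and 1 for the difference (1.51%). With the replicate block 1 of 10 chains, Il7r, was called with PI3Kdi in WT, in FOXO1-GFP KO CTL and in their mean, where 2.57%, 2.79% and 2.12% of all genes were. With adjusted p alone the blocked fit gave 3 chains in WT (Il7r, Il18r1 and Il21r, against 7.41% of all genes), and 4 in FOXO1-GFP KO CTL and in the mean (Il7r, Il12rb2, Il18r1 and Il2rg, against 10.1% and 20.9%). Between genotypes and for the difference of the responses, 0 of 10 were called with the block (0.233% of all genes without PI3Kdi, 1.18% with it and 0.0226% for the difference).

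Groups without overlap were seen for 2 of 10 chains with PI3Kdi in WT (10.2% of all genes), for 4 of 10 in FOXO1-GFP KO CTL (10.1%), for 0 between genotypes without PI3Kdi (10.3%) and for 1 with it (14.8%). All 6 pairs were higher with PI3Kdi for 5 chains, Il7r, Il2rg, Il4ra, Il12rb2 and Il18r1, a pattern of 10.1% of the 10373 genes averaging 1 FPKM or more. The median log2 fold change of the 10 chains with PI3Kdi was 0.14 for WT and 0.16 for FOXO1-GFP KO CTL, against -0.04 and -0.02 over all genes.

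The chains differed in what their variation over the 12 libraries followed. The sum of squares of log2(FPKM + 0.1) was divided into parts that follow genotype, PI3Kdi, both together, and the replicate number within a genotype. PI3Kdi took 56.8% for Il7r, 44.0% for Il2rg and 35.8% for Il12rb2, against a median of 6.39% over the 10373 genes. The replicate number took 93.5% for Il2ra and 93.0% for Il2rb (median gene 65.1%), so that little of their variation followed the groups. For Il21r the replicate number took 4.21%, while genotype took 48.4% and the combination of genotype and PI3Kdi 37.0% (median gene 1.64%). The whole Il21r range was small, 63.9 to 82.9 FPKM. Its log2 fold change between genotypes was 0.28 with PI3Kdi but 0.02 without it. Genotype took 41.1% for Il18r1 and 28.9% for Il18rap (median gene 8.27%).

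**Figure D5:**
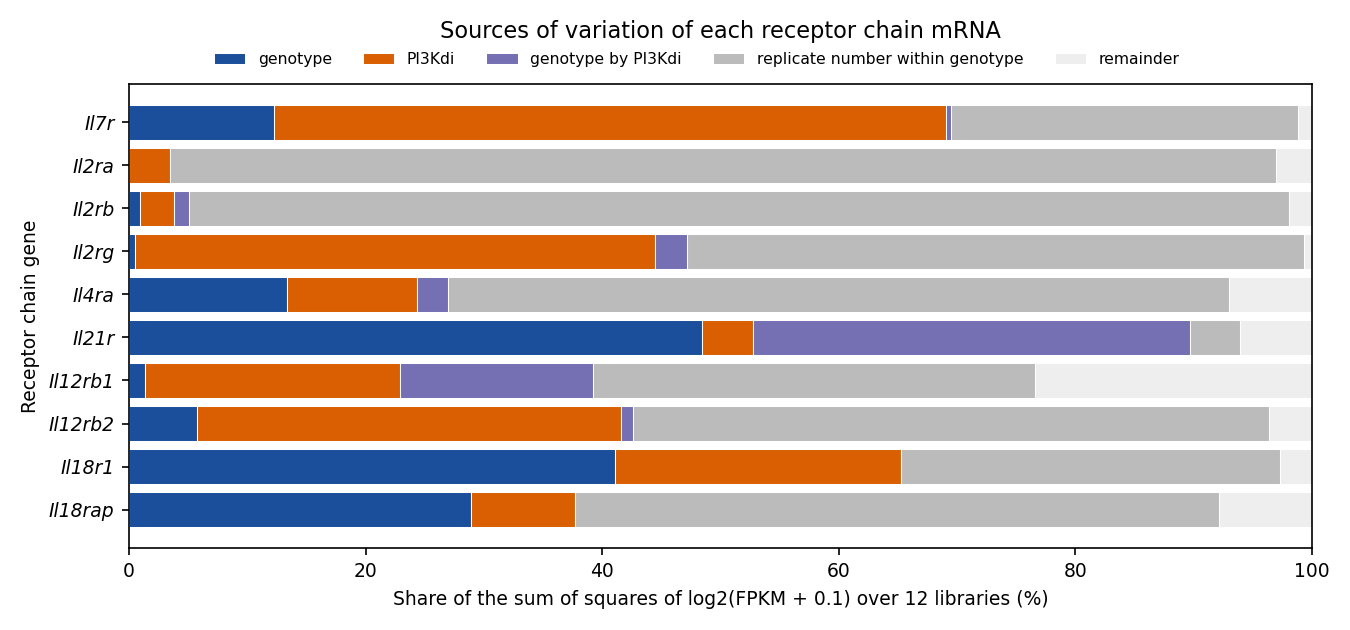
Share of the sum of squares of log2(FPKM + 0.1) over the 12 libraries, in percent, that follows genotype, PI3Kdi, genotype by PI3Kdi, replicate number within genotype and the remainder, for each receptor chain. The grey part fills most of the Il2ra and Il2rb bars (93.5% and 93.0%), the PI3Kdi part is widest for Il7r (56.8%), and the genotype and combined parts fill most of the Il21r bar.

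Deviations of the libraries from their group means showed which chains varied together within groups. These correlations are over 12 libraries that come in pairs and share depth and normalisation within a library, and are given as a description. Il7r deviated with Il2ra (Pearson's r = 0.92), Il12rb2 (0.90) and Il2rb (0.84), and against Il2rg (-0.79). Il2rg ran against Il2ra and Il2rb (-0.93 each), and Il18r1 ran with Il18rap (0.89). Libraries with more Il2ra and Il2rb mRNA than their group mean tended to have more Il7r and less Il2rg.

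Over all 12 libraries, the genes whose log2(FPKM + 0.1) ran closest to that of Il7r were Zkscan17 (r = 0.95), Ikzf4 (0.94), Arl4c (0.94), Cytip (0.94) and Tiparp (0.92), among genes averaging 1 FPKM or more. Their log2 fold changes with PI3Kdi were all smaller than those of Il7r. Arl4c was 69.5, 78.8, 64.6 and 73.0 FPKM on average in WT, WT+PI3Kdi, FOXO1-GFP KO and FOXO1-GFP KO+PI3Kdi, and Tiparp 6.97, 10.96, 4.36 and 7.26 FPKM. Of these 5, only Tiparp passed a fold change of 1.5 with PI3Kdi, and it was called with the block in both genotypes (log2 fold change 0.63 and 0.71, adjusted p = 0.00435 and 0.00256).

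Other receptor chains were read from lists of their families. Of 25 further class I chains the table held 8, and 0 were called in any comparison. The smallest p values were those of Il3ra (log2 fold change 0.44 as the mean of the genotypes, adjusted p = 0.151) and Crlf2 (0.46, adjusted p = 0.385), which is the partner of Il7r for TSLP. Of 11 class II chains 7 were present, and Ifngr2, the signalling chain for interferon γ, rose with PI3Kdi as the mean of the genotypes (log2 fold change 0.96, adjusted p = 0.0263). It was 4.0, 3.19 and 3.97 FPKM in WT against 7.01, 5.96 and 5.32 FPKM in WT+PI3Kdi, and 2.26, 2.54 and 4.11 FPKM in FOXO1-GFP KO against 5.87, 6.19 and 8.72 FPKM in FOXO1-GFP KO+PI3Kdi. The libraries did not overlap in either genotype, and with the block Ifngr2 was called in each (0.70 and 1.22, adjusted p = 0.00275 and 0.000165). Without the block the call for the mean was lost in 9 of 12 fits that left out 1 library (adjusted p 0.0128 to 0.0979), and it held without WT replicate 1, FOXO1-GFP KO replicate 3 or FOXO1-GFP KO+PI3Kdi replicate 1. Of 5 IL-17 receptor chains 2 were present and 0 were called; the log2 fold change between genotypes was -0.40 for Il17rd without PI3Kdi (adjusted p = 0.889) and -0.21 for Il17ra with it (adjusted p = 0.696).

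Of 12 ligands and soluble antagonists of these receptors 4 were in the table, and none of Il2, Il7, Il12a, Il12b, Il15 and Il21 was. Il4 was called with PI3Kdi in WT with the block (log2 fold change 1.1, adjusted p = 0.0405) at a low level, 0.13, 0.22 and 0.59 FPKM against 0.81, 0.37 and 1.06 FPKM, and that call was lost in 5 of 12 blocked fits that left out 1 library (adjusted p 0.0259 to 0.211), namely without any WT library or WT+PI3Kdi replicate 1 or 3. All 16 genes of receptor-proximal signalling were present. Stat4, the transcription factor of the IL-12 receptor, was 18.4, 16.1 and 16.7 FPKM in WT+PI3Kdi and 8.62, 7.71 and 9.91 FPKM in FOXO1-GFP KO+PI3Kdi, and was called lower (log2 fold change -0.96, adjusted p = 0.00237). The log2 fold change of Stat4 with PI3Kdi was 0.50 for WT and 0.03 for FOXO1-GFP KO CTL, under the fold change of 1.5 in both. Irak2, a kinase of the IL-1 and IL-18 receptor pathway, was called with the block in FOXO1-GFP KO CTL (0.63, adjusted p = 0.00146), except in the fit without FOXO1-GFP KO replicate 1. Of 4 feedback genes induced by cytokines 0 were called, and Socs3 and Cish had log2 fold changes of 0.39 (mean of the genotypes, adjusted p = 0.208) and -0.20 (between genotypes without PI3Kdi, adjusted p = 0.812).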

How the data were processed

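The authors aligned paired reads to GRCm38.p6 with STAR 2.7.1a, counted them per gene (Ensembl annotation), filtered low genes with edgeR filterByExpr, applied TMM factors and normalised to the union of exons of a gene. They deposited FPKM with 2 decimals, and genes lost to the filter were not analysed here. Reads per library, as scaled by the TMM factors, came from the FPKM steps of genes of at most 400 bp. In held-out genes of 400 to 800 bp, 98.5 to 100% of values were whole reads within 0.2 reads (40% by chance). GENCODE M21 gave positions and lengths.

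limma 3.58.1 (R 4.3.3) fitted 4 group means to log2(FPKM + 0.1) of 12 libraries, with a mean-variance trend and Benjamini-Hochberg adjustment over 13283 genes. The study used voom on counts; voom on estimated reads was an alternative. The block was a random effect of genotype and replicate number (limma duplicateCorrelation, consensus correlation 0.757). Replicate numbers were taken as pairs within a genotype because deviations from group means correlated at 0.596 to 0.838 in WT and 0.594 to 0.780 in FOXO1-GFP KO CTL, but at -0.409 to 0.730 between genotypes. The fits were also run on simulated data in which libraries of 1 pair shared a built-in effect. Of 200 genes changed in WT there, 58.5% were recovered without the block and 96.5% with it. Because the pairs were built in, this cannot decide whether the real libraries are paired. The receptor chains and all gene lists were chosen with earlier results of these data known. Genes named besides the 10 chains were Foxo1, the 5 most like Il7r, and list members that were called or, where 0 were, the 2 with the smallest p.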

Additional observations from a re-analysis of the deposited data

Results flagged for a closer look

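The response of Il21r to PI3Kdi had opposite signs in the genotypes: it was lower in 3 of 3 WT pairs and higher in 3 of 3 FOXO1-GFP KO pairs. The log2 response in FOXO1-GFP KO minus that in WT was 0.261 (SE 0.106), with an adjusted p of 1 without and 0.111 with the replicate block, so the difference did not pass the test. Over fits that left out 1 library it was 0.218 to 0.306.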

How the results depend on the processing

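The replicate block raised the number of chains called from 0 to 1 in each comparison with PI3Kdi (WT, FOXO1-GFP KO and their mean), as did voom on estimated reads with the block; the chain was Il7r. With the block and no fold change minimum, chosen after seeing the data, 3, 4 and 4 chains passed. Fits that left out 1 library gave 0 to 1 in these 3 comparisons, 0 without and 1 with the block. The block changed no other call among the chains, and pseudocounts of 1 and 0.01 FPKM, a minimum mean of 1 FPKM, quantile normalization, voom without the block and no fold change minimum left all 6 counts at 0.

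Over all genes the calls with PI3Kdi in WT, FOXO1-GFP KO and the mean went from 13, 6 and 62 to 342, 370 and 282 with the block and to 356, 446 and 429 with voom and the block, and those of the difference from 0 to 3 and 6. Voom alone gave 22 in WT, a pseudocount of 1 FPKM gave 31 in the mean, and a minimum mean of 1 FPKM gave 36 in the mean and 111, against 193, between genotypes with PI3Kdi.

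Of 60 log2 fold changes of the chains, 23 changed sign in some fit, none larger than 0.18 and none called. Quantile normalization turned Il2rb with PI3Kdi to -0.0165 in WT and -0.000237 in the mean. Among the fold changes given above, the ranges that crossed 0 over fits that left out 1 library were -0.10 to 0.26 (Il2ra in WT), -0.0545 to 0.25 (Il2ra in FOXO1-GFP KO), -0.0780 to 0.13 (Il2rb in WT), -0.0507 to 0.26 (Il2rb in FOXO1-GFP KO), -0.0137 to 0.14 (Il2rb in the mean), -0.0500 to 0.16 (Il4ra in FOXO1-GFP KO), -0.0864 to 0.10 (Il12rb1 in WT), -0.0671 to 0.11 (Stat4 in FOXO1-GFP KO), -0.48 to 0.0601 (Il7r, difference of the responses) and -0.0195 to 0.0518 (Il21r between genotypes without PI3Kdi). The cause was not tested. Il7r had the fewest estimated reads of the chains, with 208 in the shallowest library. Whether depth limited its fold changes was not tested.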

Other observations

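Crlf2, the partner of Il7r for TSLP, was 19.3, 26.9 and 34.1 FPKM in WT CTL with vehicle and 27.2, 32.5 and 46.2 FPKM with PI3Kdi. Crlf2 in FOXO1-GFP KO CTL was 30.2, 24.8 and 32.7 FPKM with vehicle and 37.7, 36.1 and 53.8 FPKM with PI3Kdi. It was above Il7r in all 12 libraries, and both were higher with PI3Kdi in 6 of 6 pairs. This pattern was shown by 10.1% of the 10373 genes averaging 1 FPKM or more.

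Il10ra, an IL-10 receptor chain chosen here after its values were seen, was 18.4 ± 0.842 FPKM in WT and 23.9 ± 3.50 FPKM in FOXO1-GFP KO (SD, n = 3), without overlap. With PI3Kdi it was 23.0 ± 3.20 FPKM and 32.8 ± 3.21 FPKM, again without overlap. Among all genes, 10.3% were without overlap between genotypes without PI3Kdi and 14.8% with it. Neither Il10ra difference between genotypes passed the test (log2 fold change 0.37 and 0.51, adjusted p = 0.525 and 0.112).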
